A study of Homo sapiens with 8 samples.

Results

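An m6A peak was called frame-spanning here when the label that the authors gave it named both the 5′ UTR and the stop codon, so that 1 peak touched both ends of a reading frame, or both kinds of feature in different transcript models. The label chose the peaks, and no measured value did. Frame-spanning peaks numbered 1343 of 15730 in the list of control U2OS cells (8.5%) and 1126 of 13219 in the list of DF2 siRNA cells (8.5%), 2469 of 28949 in all. They lay in 1300 genes of the control list, 13.0% of its genes, and in 1097 genes of the DF2 siRNA list, 12.8% of its genes. The nearest other kind, a peak with a stop codon label and no 5′ UTR label, numbered 5378 and 4645, and serves below for comparison as "other stop codon peaks".

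U2OS is a human osteosarcoma cell line. The study held 8 libraries in 4 groups of 2: fragmented cytoplasmic RNA (input) of control cells and of cells given siRNA against YTHDF2 (DF2), and from each an immunoprecipitate with an anti-m6A antibody (SYSY). The DF2 siRNA libraries bear the numbers #1 and #2 in the labels, which do not tell whether 1 siRNA or a pair of them was used, and nothing tells of separate cultures. The control treatment has no further description. The labels tie 1 peak list to both immunoprecipitates of a condition, so each condition is 1 list, no spread between libraries can be given, and the conditions are set side by side without p-values. Each interval given for a share is a 95% Clopper-Pearson (exact binomial) interval, which reflects counting error alone, and library depth is unknown. Of 8 bone and matrix markers, RUNX2, COL1A1, COL5A1 and BMP2 had a peak of any kind in both lists. Of the other cell types' markers, KRT8 of 5 epithelial genes had a peak in both lists, while 2 and 1 of 4 blood genes and 2 and 1 of 3 endothelial genes had one in the control and DF2 siRNA lists. A peak shows that RNA of a gene was present and not how much of it there was.

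N6-methyladenosine, m6A, is a methyl mark that a nuclear complex around METTL3 and METTL14 writes on adenosines within a short consensus that holds GGAC in its commonest form. Most m6A of mRNA lies in long internal exons and around stop codons. The 5′ end of an mRNA carries a different methylated adenosine, m6Am, next to the cap when transcription starts with A, and antibodies against m6A bind it too. The protein YTHDF2 binds m6A in the cytoplasm and hands the bound mRNA to decay enzymes. Exon junctions bind a protein complex that keeps the writer away from nearby sequence, and genes with an uninterrupted reading frame lack such junctions across their frame.

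A frame-spanning peak can reach the first transcribed bases, and it did so for 292 of 1050 control peaks whose gene had an entry in the RefSeq promoter table (27.8%) and for 251 of 882 DF2 siRNA peaks (28.5%), counting peaks that covered all of the first 50 bases. In 171 genes this held in both lists, and 32 of these had GGAC within the 50 bases. Shown are 6 such sites from genes with wide and with narrow members, chosen after their values were seen, to let the consensus be seen in its setting. They are genomic sequence from RefSeq (GRCh38.p14), 5′ to 3′ on the transcribed strand, and capitals mark the 5 letters GGACT.
FOXL2, chr3:138947096-138947116, minus strand: cgcactagGGACTccaggagg
RBM15, chr1:110339402-110339422, plus strand: gccaatgaGGACTgcggggcg
CDKN2B, chr9:22009265-22009285, minus strand: ggcagtgaGGACTccgcgacg
VASN, chr16:4371874-4371894, plus strand: gtggacgcGGACTcgaacgca
SLC39A7, chr6:33200883-33200903, plus strand: taaaggcgGGACTgccacgtc
TPP1, chr11:6619385-6619405, minus strand: gcagaatgGGACTccaagcct

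The sites printed for these genes are matches of letters and nothing more. VASN, an inhibitor of TGF-beta signalling, had a peak of 2806 nt in control and 2800 nt with DF2 siRNA over a gap of 8875 bases, at fold enrichments (the authors' ratio per peak) of 60.9 and 77.2. SLC39A7, a zinc transporter, had the same 1200 nt without a gap in both lists, at 26.8 and 33.9. GGAC stood on the transcribed strand within the first 50 bases under 18.5% of the covering control peaks (14.2 to 23.4) and 20.7% of the covering DF2 siRNA peaks (15.9 to 26.3), against 19.7% of all 15842 protein-coding genes in the table. On the opposite strand the shares were 22.9%, 19.1% and 19.2%. The longer GGACT, which contains GGAC, was found in 6.8% of either set (4.2 to 10.4 and 4.0 to 10.6) and in 4.8% of all genes. The first transcribed base was A in 56.2% of both sets (50.3 to 61.9 and 49.8 to 62.4) and in 50.7% of all genes, a base at which m6Am can sit. For GGAC, GGACT and the first base alike, the intervals of both sets included the share among all genes.

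ARF6, a small GTPase of endosomal recycling, had the highest fold enrichment of all 15730 control peaks. Its peak was chr14:49893590-49894589 in both lists, 1000 nt of 1 exon beginning 508 bases after the RefSeq gene start. Its fold enrichment was 320.2 in control and 93.4 with DF2 siRNA, and the authors' score was 14539 and 2494. It stood at the percentile 96.5 of the DF2 siRNA list by fold enrichment, and its interval was the same to the base in both lists. What the ratio is relative to is unknown, so values from the lists are given side by side without a comparison.

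A mixed list of AP-1, ATF, MAF, C/EBP, IER, EGR, KLF and ID genes also held MYC and NR4A1. Of its genes with any peak, 7 of 33 in control and 7 of 34 with DF2 siRNA had a frame-spanning one (21.2% and 20.6%). CEBPA, CEBPB and NR4A1 were among the 7 in control and with DF2 siRNA alike. Among forkhead, SOX and POU factors it was 7 and 6 of 19 (36.8% and 31.6%). Over all genes it was 13.0% and 12.8%. In both lists 6 of each group had one, and CEBPD, JUND, IER2, IER5, FOXC2 and FOXE1 were among those with other peaks only. These and the following gene lists were chosen with earlier results of these data known, so their shares are descriptions and not tests. All genes means all genes with a peak, whether coding or not. An ncRNA label was borne by 15.5% and 11.8% of all peaks and by 2.2% and 1.9% of frame-spanning peaks. JUNB, a subunit of AP-1, carried 1 peak of 1800 nt (chr19:12791496-12793295) that covered all but the outermost 10 and 20 bases of the RefSeq gene, with a fold enrichment of 68.9 in control and 78.6 with DF2 siRNA. CEBPB had a peak of 1956 nt at 57.4 and 93.7, and CEBPA one of 1800 nt at 133 and 132. SOX12 had identical peaks of 1600 nt at 57.2 and 155. FOXL2, of which a site is printed above, had 2400 nt in both lists at 142 and 106. SOX4 differed in extent, with 3600 nt in control against 3000 nt, at 102 and 138.

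The labels differed between the lists for JUN, EGR2 and FOXD2. EGR2 and FOXD2 were frame-spanning in control alone. In control the JUN transcript carried 2 peaks, of 1400 nt and 800 nt, with an unmarked stretch between them, and neither was frame-spanning. With DF2 siRNA, 1 peak of 2600 nt (chr1:58781528-58784127) ran from the start of the first to the end of the second. Its fold enrichment was 116, and that of the first control peak was 12.9. The value of the second control peak is not given here, so these values do not compare the lists at JUN. For THAP11, a zinc finger protein of stem cells, the control peak of 1714 nt at 166 was frame-spanning, and its DF2 siRNA peak of 1400 nt at 170.3 began 200 bases later and had no 5′ UTR label.

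**Figure D1:**
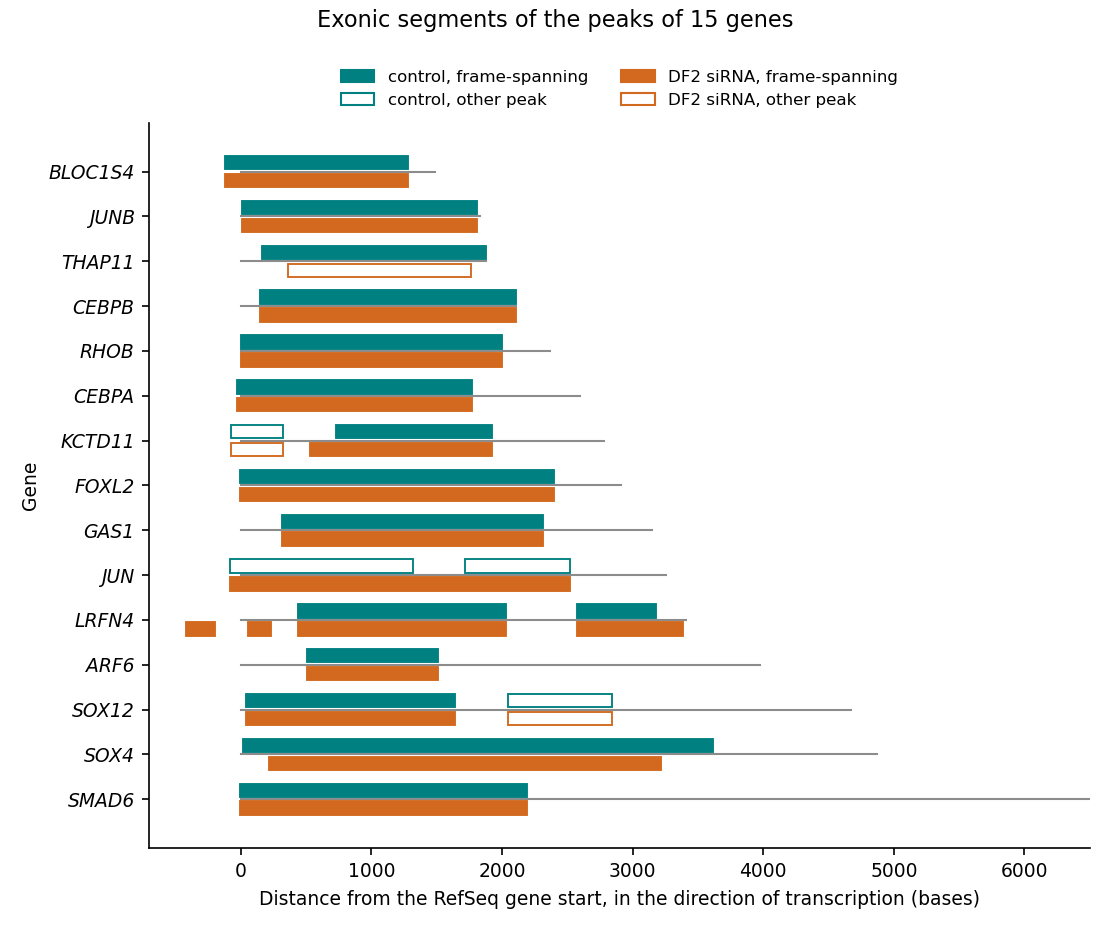
Exonic segments of the peaks of 15 genes along the distance from the RefSeq gene start in bases, in the direction of transcription. Upper bars are control and lower bars DF2 siRNA, filled bars are frame-spanning peaks and open bars other peaks, and the grey line is the RefSeq gene, ended at 6500 bases for SMAD6. JUNB, RHOB and FOXL2 are covered from within 10 bases of the start in both lists, and JUN by 2 peaks in control and 1 with DF2 siRNA.

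Small GTPases switch between active and inactive forms to steer membrane traffic and the cytoskeleton. Of 46 listed genes of these proteins and their partners, 24 had any peak in control and 26 with DF2 siRNA, and 11 in each had a frame-spanning one (45.8% and 42.3%, against 13.0% and 12.8% of all genes), 10 of them in both lists. RHOB, an endosomal member of the family, began at the first base of the RefSeq gene and ran for 2000 nt in both lists at a fold enrichment of 77.6 and 77.7. The CDC42 effectors CDC42EP2, CDC42EP3 and CDC42EP4 had widths of 1600 to 1824 nt with fold enrichments of 55.5, 52.3 and 71.3 in control and 87.8, 32.1 and 119 with DF2 siRNA. RND3, which loosens actin stress fibres, was frame-spanning in control alone (1000 nt, fold enrichment 120.1).

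A mixed group held feedback inhibitors of growth factor and cytokine signalling, together with CDK inhibitors, BTG, TOB, TRIB and GADD45 genes, PMAIP1 and NRARP. It gave 12 frame-spanning genes in each list, of 37 and 38 with any peak (32.4% and 31.6%, against 13.0% and 12.8% of all genes), and 9 were shared. BTG2, CDKN1B, CDKN2B, PMAIP1 and TOB2 were among the 12 in control, so the shares do not describe feedback inhibitors alone. SMAD6, which blocks BMP signalling, had an identical peak of 2200 nt at the start of an 80614-base gene (chr15:66702228-66704427). Its fold enrichment was 164 in control and 369 with DF2 siRNA, the highest of all peaks of the latter list. The label of this peak included a stop codon and no 3′ UTR, although the peak ended 78422 bases before the end of the RefSeq gene. TRIB1, a pseudokinase, had 2200 nt in both lists at 128 and 87.1, and CDKN2B, an inhibitor of CDK4, had 2000 nt in 2 segments at 91.9 and 83.8. SOCS4 and SOCS6, adaptors that end cytokine signals, were frame-spanning in control alone (136 and 121), and DUSP6 and SPRY1, inhibitors of ERK signalling, with DF2 siRNA alone (29.5 and 51.0).

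Of the 65 listed genes with an uninterrupted reading frame, 44 had any peak in each list, and 15 had a frame-spanning one in each (34.1%, against 13.0% and 12.8% of all genes), 13 in both. In each list, the other 29 had peaks without both labels, among them the frizzled receptors FZD1, FZD2, FZD5, FZD7 and FZD8 and the AP-1 subunit JUND. H1F0, a linker histone, and CLDN4, a tight junction protein, were frame-spanning in control alone, at 43.2 over 1400 nt and 17.4 over 2702 nt. MC1R, the melanocortin receptor, was so with DF2 siRNA alone, yet its peak of 3166 nt began 3757 bases before the RefSeq gene and shared 1192 bases with a peak of the tubulin gene TUBB3. An uninterrupted frame was therefore not enough for a frame-spanning label.

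BTB, Kelch and KCTD proteins, substrate adaptors of ubiquitin ligases and DNA-binding factors, gave 17 frame-spanning genes in control and 11 with DF2 siRNA, of 42 with any peak in each (40.5% and 26.2%, against 13.0% and 12.8% of all genes). In both lists 10 had one, 7 had it in control alone and 1 with DF2 siRNA alone. KCTD11, an antagonist of Hedgehog signalling, had 1200 nt at 173 in control and 1400 nt at 139 with DF2 siRNA. ZBTB39 and ZBTB43 were frame-spanning in control alone (114 over 3200 nt and 96.6 over 2200 nt), and ZBTB45 with DF2 siRNA alone (15.7 over 1200 nt). All genes whose name begins with ZBTB gave 16 of 39 in control (41.0%, interval 25.6 to 57.9) and 9 of 38 with DF2 siRNA (23.7%, interval 11.4 to 40.2). Zinc finger genes named ZNF gave 87 of 363 (24.0%, 19.7 to 28.7) and 60 of 341 (17.6%, 13.7 to 22.1). Over all genes it was 13.0% and 12.8%, and the interval of ZBTB with DF2 siRNA included the latter. These were 2 of 8 families counted by the start of the name. The SLC genes gave 13.9% and 12%, TMEM 11.3% and 16%, FAM 19.3% and 15.7%, RP 9.3% and 21.9%, KLHL 22.7% and 30%, and KCTD 33.3% in each. The RP count, 5 of 54 and 7 of 32 genes, did not take in all clone names that begin with these letters. The order of the lists thus varied between families, and the control and DF2 siRNA intervals overlapped in all 8.

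Seven-pass receptors gave 8 frame-spanning genes in each list, of 29 and 28 with any peak (27.6% and 28.6%, against 13.0% and 12.8% of all genes), with 7 in both. GPRC5A, an orphan receptor induced by retinoic acid, had the same 1400 nt in both lists with an intron gap of 16509 bases, at fold enrichments of 92.0 and 119. In housekeeping groups the counts were small. Of 42 ribosomal protein genes, 13 and 8 had any peak, and RPS15 alone was frame-spanning in both lists, over 200 nt at 14.4 and 16.5, while RPL36 was so with DF2 siRNA alone, over 400 nt at 6.81. These are 7.7% and 25% of the ribosomal protein genes with a peak and rest on 1 and 2 genes, against 13.0% and 12.8% of all genes. Of 41 genes of the respiratory chain and the mitochondrial ribosome, 19 and 17 had any peak and 4 were frame-spanning in both lists (21.1% and 23.5%), COX6A1, MRPL14, MRPL36 and MRPL54, the widest over 1000 nt. Among 24 histone genes, 6 had any peak in each list and 2 and 1 a frame-spanning one, and H2AFJ, a replacement histone H2A, was frame-spanning in both over 800 nt. Heat shock proteins and their co-chaperones gave 3 and 2 of 18, and claudins, connexins and other short membrane proteins 3 of 12 and 2 of 13.

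Among 23 genes of m6A writing, erasing and reading, 20 had a peak in each list, and 2 had a frame-spanning one in control and 1 with DF2 siRNA. These shares, 10% and 5%, lay below the 13.0% and 12.8% of all genes and rest on 2 genes. RBM15, a subunit that guides the writer to RNA, carried 3400 nt in control and 3200 nt with DF2 siRNA in 1 exon, at 139 and 124. YTHDF2 itself, the target of the siRNA, was frame-spanning in control alone, over 2000 nt with a gap of 26946 bases at 124. With DF2 siRNA its peak held 1400 nt of coding sequence and stop codon at 52.3, with a score of 185 there and 4226 in the control list. In control, the other 18 genes had peaks that did not carry both labels, among them METTL14, WTAP and the eraser ALKBH5.

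Over all members, the exonic width, which is the sum of a peak's segments without introns, had a median of 1000 nt in control (quartiles 600 and 1600) and 1000 nt with DF2 siRNA (600 and 1495). The median was 800 nt for other stop codon peaks and 600 nt for all peaks of either list. A width of 1000 nt or more was held by 58.0% of control members (55.3 to 60.7) and 52.5% of DF2 siRNA members (49.5 to 55.4), against 37.4% (36.1 to 38.7) and 34.3% (32.9 to 35.6) of other stop codon peaks. A wide peak has more chance to carry several labels, so part of this difference lies in the rule. The widest members were DSEL, a glycosaminoglycan epimerase, with 5600 nt in control, and TLR6, an innate immune receptor, with 4800 nt in control. SMCR8, a regulator of autophagy, had 4600 nt in the same blocks in both lists.

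The share of peaks without an intron gap, that is with genomic span equal to exonic width, was 26.3% in control (353 peaks, 23.9 to 28.7) and 28.1% with DF2 siRNA (316 peaks, 25.5 to 30.8). Over all peaks it was 53.6% and 58.0%, and over other stop codon peaks 47.9% and 55.2%. Frame-spanning peaks were thus less often confined to 1 exon than the comparison peaks, with intervals that did not overlap. A peak that must touch both a 5′ UTR and a stop codon has more chance to cross introns. Part of this difference, and of those in segments and gaps below, therefore lies in the rule. At the far end, 7.6% of control members (6.2 to 9.1) and 4.9% of DF2 siRNA members (3.7 to 6.3) had 5 or more segments, against 1.2% and 0.6% of other stop codon peaks. A gap of 10000 bases or more was found in 25.5% (23.2 to 28.0) and 22.0% (19.6 to 24.6), against 7.2% and 5.2%. The median gap was 2547 bases in control (2107 to 3043) and 1406 bases with DF2 siRNA (1023 to 1892).

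**Figure D2:**
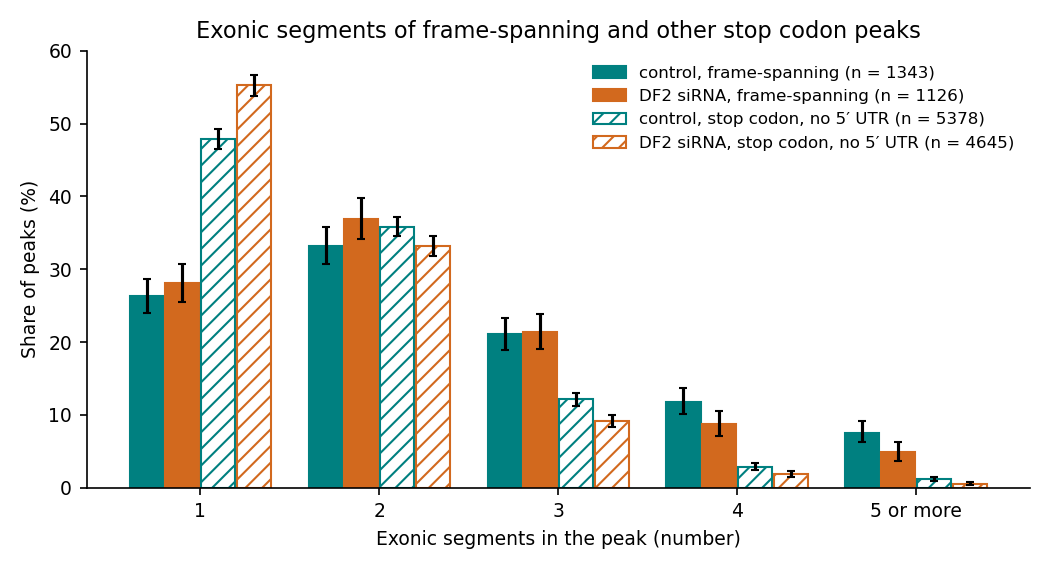
Share of peaks in percent by the number of exonic segments, for frame-spanning peaks (filled bars) and other stop codon peaks (hatched bars) of each list, with 95% exact binomial intervals as error bars. A single segment held 26.3% and 28.1% of frame-spanning peaks and 47.9% and 55.2% of other stop codon peaks, and 3 or more segments were commoner among frame-spanning peaks.

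The largest gap was in EXT1, a polymerase of heparan sulphate, whose peak joined 1400 nt in 4 segments over a gap of 278229 bases in both lists, at fold enrichments of 92.3 and 111. TPST1, a tyrosine sulphotransferase of the Golgi, had 9 segments in control and 8 with DF2 siRNA over gaps of 152523 and 152252 bases. PPP1R9A, a scaffold that binds actin and phosphatase, had 2400 nt over 201772 bases in control at 62.1, and 1800 nt over 201053 bases at 21.1. BASP1, a membrane protein of growth cones, had the highest score among frame-spanning peaks of both lists, 14991 and 9638, with 1200 nt in 4 segments over 62699 bases. Its first segment began 4695 bases before the RefSeq gene start. TTC28 and ARL15 had gaps of 236145 and 226394 bases in control alone, with fold enrichments of 6.72 and 14.5, well below the median of the frame-spanning peaks.

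Fold enrichment had a median of 40.1 in control (36.2 to 43.2) and 30.4 with DF2 siRNA (28.5 to 32.4). It was 32.3 (31.4 to 33.2) and 25.9 (25.0 to 26.8) for other stop codon peaks and 20.8 and 17.7 for all peaks. The upper 50% of a list by fold enrichment held 70.9% of control members and 72.1% of DF2 siRNA members, against 67.2% and 66.9% of other stop codon peaks. Within each list, the median of frame-spanning peaks was thus above that of other stop codon peaks, with intervals that did not overlap. This did not hold for the 534 and 494 members labelled coding, 5′ UTR and stop codon alone, with medians of 24.5 and 22.9. The 779 and 611 with these labels and the 3′ UTR had 50.7 and 37.6, at median widths of 1400 and 1200 nt. A 3′ UTR label was borne by 59.4% and 55.2% of members and by 92.4% and 91.9% of other stop codon peaks.

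A label pair can come from 1 frame or from several transcript models. Reading frame lengths and the authors' transcript models were not used here, so which it was for a given peak was not settled. Peaks of 1 segment, over 400 nt and with a 3′ UTR label as well, numbered 180 in control and 163 with DF2 siRNA. Their median width was 1400 nt in each list, the median fold enrichment 62.7 and 49.7, and the median length of their RefSeq genes 5444 and 4627 bases, against 22007 and 19306 bases for all members. RefSeq gave 1 curated transcript for 55.1% and 56.1% of them, against 27.9% and 28.0% of all members. The peak was at least 80% as wide as the gene for 39 of 176 and 29 of 157 with a RefSeq match. Among these were B3GALT6, a galactosyltransferase of proteoglycan linkers, with 2777 nt of a 2805-base gene, and SFN, the 14-3-3 sigma protein, with 1320 nt against a gene of 1308 bases.

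At the opposite end, peaks of 1 segment with at most 400 nt numbered 94 and 72. A stretch of 400 nt can hold at most 133 codons. Their median fold enrichment was 11.6 and 11.8, their genes had a median of 3 curated transcripts, and 52.7% and 51.5% of them began within 200 bases of the RefSeq gene start. TPP1, a lysosomal peptidase, had 200 nt in both lists at 15.7 and 18.3, and its printed site lies in it. NTHL1, a DNA glycosylase, had 200 nt at 22.2 and 31.9, beginning 32 bases before the start of an 8015-base gene. TRIAP1, a small protein of mitochondrial lipid transport and p53 response, had 200 nt at 25.0 and 22.1. In PIK3CA, the catalytic subunit of PI3-kinase, a control peak of 400 nt lay 50647 bases into a 91968-base gene at 49.2 and had no counterpart with DF2 siRNA. MAZ, a zinc finger factor, carried 3 separate frame-spanning peaks in each list, of 200 to 600 nt.

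Position relative to RefSeq genes followed the labels. The peak began within 200 bases of the gene start for 32.3% of control members (29.7 to 34.9) and 33.4% of DF2 siRNA members (30.6 to 36.3), and for 0.63% and 0.68% of other stop codon peaks. The 5′ UTR label makes this likely by itself. The peak ended within 200 bases of the gene end for 8.7% and 9.3% of members, and for 16.5% and 17.0% of other stop codon peaks. Genes of at most 5000 bases were 14.8% (12.9 to 16.9) and 17.3% (15.1 to 19.7), against 6.7% and 7.5%. The share with 1 curated transcript was 27.9% (25.4 to 30.4) and 28.0% (25.4 to 30.8), and its intervals included the 28.0% and 28.8% of other stop codon peaks.

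Members more often shared bases with a peak listed for another gene, in 13.8% of control members (11.98 to 15.7) and 12.5% of DF2 siRNA members (10.6 to 14.6), against 5.7% and 5.8% of other stop codon peaks. Several were pairs of a gene and a read-through model. GALNT4, a glycosyltransferase, and POC1B-GALNT4 shared 1834 bases in control at fold enrichments of 94.1 and 87.5. TICAM2, an adaptor of Toll-like receptors, and TMED7-TICAM2 shared 1524 bases in control at 126 and 134. ALG11, a mannosyltransferase, and its neighbour UTP14C shared 1593 bases in each list. ADHFE1 was listed with 200 nt at 91.6 and 71.6, of which 194 lay in the 1706-nt peak of RRS1, a ribosome assembly factor, at 90.1 and 75.0. Such reads cannot be told apart between the genes, and the ADHFE1 value was close to that of RRS1 in each list.

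The match between the lists was counted on exonic blocks of the same strand, and 1 common base was enough. A DF2 siRNA peak of any kind overlapped 87.1% of control members (85.2 to 88.9), while over all control peaks it was 71.9% and over other stop codon peaks 82.8% (81.7 to 83.8). A control peak overlapped 93.5% of DF2 siRNA members (91.9 to 94.9), while over all DF2 siRNA peaks it was 87.5% and over other stop codon peaks 93.3% (92.5 to 94.0). With the control list shortened to the length of the other, the shares of members were 89.9% and 91.9%. Members of the control list were thus overlapped more often than other stop codon peaks, while in the DF2 siRNA list the intervals of both kinds overlapped.

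A frame-spanning peak of the other list overlapped 66.8% of control members (897 peaks, 64.2 to 69.3) and 78.9% of DF2 siRNA members (888 peaks, 76.4 to 81.2). Over all peaks this was 7.53% and 10.3%. Other kinds of peak alone overlapped 273 control members (20.3%) and 165 DF2 siRNA members (14.7%), and 173 (12.9%) and 73 (6.5%) had no overlap. Blocks identical to the base were found for 461 members, 34.3% of control (31.8 to 36.9) and 40.9% of DF2 siRNA members (38.1 to 43.9). All peaks gave 29.5% and 35.1%. Other stop codon peaks gave 33.4% and 38.7%, shares that the members' intervals included.

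**Figure D3:**
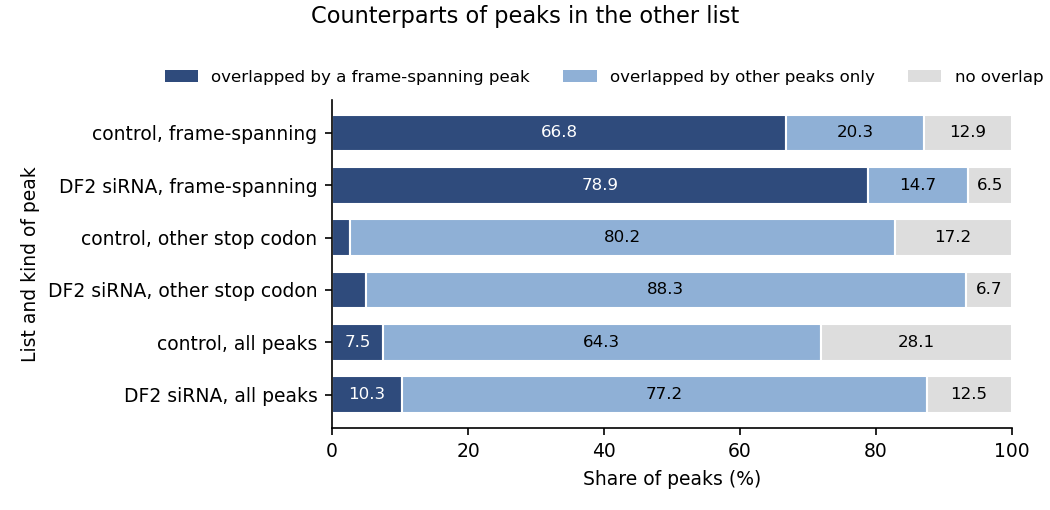
Share of peaks in percent by their counterpart in the other list, for frame-spanning, other stop codon and all peaks of each list, with every bar adding to 100%. A frame-spanning counterpart was found for 66.8% and 78.9% of frame-spanning peaks, other peaks alone for 20.3% and 14.7%, and none for 12.9% and 6.5%.

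By score, the overlap of control members rose from 32.8% in the lowest 20% of the list to 66.7, 86.6, 93.0 and 97.7% in each next 20%. Other stop codon peaks gave 32.7, 63.1, 79.7, 89.8 and 97.1%. With DF2 siRNA the members gave 72.1, 84.3, 93.6, 95.5 and 99.5%, and other stop codon peaks 81.5, 88.0, 91.3, 94.96 and 98.8%. By width, 57.1% of control members of at most 400 nt were overlapped and 97.7% of those over 1200 nt, and other stop codon peaks gave 51.9% and 97.7%. At like score or width the intervals of the 2 kinds overlapped, in 5 of 5 steps of score and 4 of 4 of width in each list. At step 3 of score in control they barely met, at 81.957% (members, lower end) and 82.008% (other stop codon peaks, upper end). Overlap of intervals does not show that the 2 kinds were alike, and a difference at like score or width was not tested. Members without a counterpart were mostly narrow, with a median of 400 nt and a median fold enrichment of 12.02 in control.

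**Figure D4:**
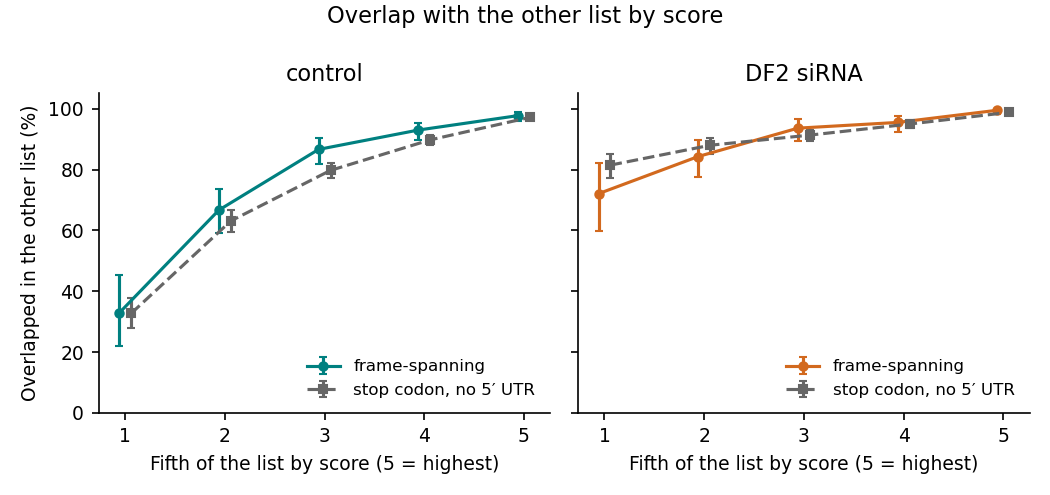
Share of peaks in percent overlapped by a peak of the other list, in steps of 20% of the list by the authors' score, for frame-spanning peaks (solid line, circles) and other stop codon peaks (dashed line, squares), with 95% exact binomial intervals. In control the shares run from 32.8 to 97.7% and from 32.7 to 97.1%, and with DF2 siRNA from 72.1 to 99.5% and from 81.5 to 98.8%.

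Where the counterpart was of another kind, it was mostly a shorter piece. Of the 273 such control members, 266 met a narrower DF2 siRNA peak, 110 a peak with coding, stop codon and 3′ UTR labels and 65 one with coding and 5′ UTR labels, and 79 met 2 or more peaks. Of the 165 DF2 siRNA members, 129 met a narrower control peak, 25 a wider one and 11 one of equal width. PDP2, a phosphatase of pyruvate dehydrogenase, had 2600 nt in control at 186 and 1600 nt without the 5′ UTR at 80.8 with DF2 siRNA. IFIT2, an interferon-induced protein, had 2200 nt at 144 against 1800 nt at 68.2. In the opposite direction, EXOSC6, a subunit of the RNA exosome, had 1800 nt with DF2 siRNA at 166 and 1400 nt in control at 143, and CIC, a repressor in ERK signalling, had 3000 nt at 164 against 2400 nt at 167.

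By gene, 868 had a frame-spanning peak in both lists, which is 66.8% of the control genes and 79.1% of the DF2 siRNA genes. In control alone there were 432 genes, of which 340 had another kind of peak with DF2 siRNA and 92 had none. With DF2 siRNA alone there were 229 genes, of which 197 had another kind of peak in control and 32 had none. Over all genes, 79.7% of those in the control list had any peak with DF2 siRNA, and 92.9% of those in the DF2 siRNA list had any in control. These 2 shares count any peak, so they are unlike the 66.8% and 79.1%, which need a frame-spanning one. The like counts are the 92 of 1300 control genes and 32 of 1097 DF2 siRNA genes that had no peak in the other list. The frame-spanning peak was the gene's only peak in 576 control genes (44.3%) and 544 DF2 siRNA genes (49.6%).

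Overlapping pairs of frame-spanning peaks numbered 975, from 897 control and 888 DF2 siRNA members. A pair needed 1 shared base and no common gene. A peak can therefore stand in several pairs, and some pairs join different genes, such as ADHFE1 and RRS1. In 490 of the 975 pairs (50.3%) both peaks were equally wide, in 341 (35.0%) the control peak was wider and in 144 (14.8%) the DF2 siRNA peak was. The median excess was 200 nt in either direction, and 92.9% of control members and 93.9% of DF2 siRNA members had a width that was a multiple of 200 nt. DAG1, dystroglycan, had 1400 nt in control with a separate control peak of 2000 nt beside it, and 3400 nt in 1 peak with DF2 siRNA. PRR14L had 4400 nt in control at 122 and 2400 nt at 131, and LRFN4, a synaptic adhesion protein, had 2200 nt in control at 154 and 2800 nt at 269. The surplus of wider control peaks came beside median scores of 370 for control members and 159 for DF2 siRNA members, and the part of depth or score in it was not tested.

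**Figure D5:**
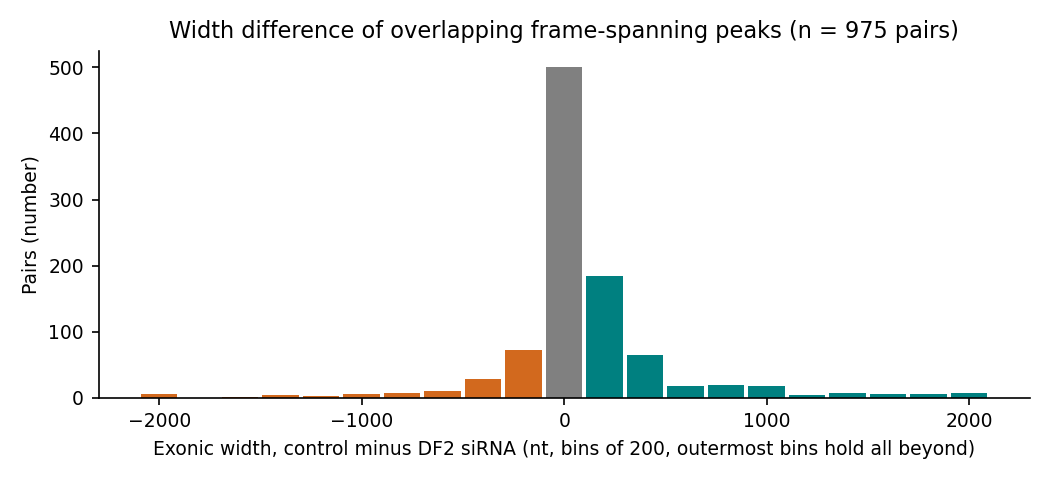
Number of overlapping pairs of frame-spanning peaks by the difference in exonic width, control minus DF2 siRNA, in nt and in bins of 200 nt around 0, with larger differences put into the outermost bins. Pairs were formed by shared bases and not by gene, so a peak can be counted in several pairs. The middle bin holds the 490 equally wide pairs and those that differ by less than 100 nt, and the bars at the right, where control is wider, are taller than those at the left.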

How the data were processed

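The members and gene lists were chosen with earlier results of these data known. Per the submitters' processing notes, HISAT2 was used for alignment and hg38 was the build. Peak caller, settings, annotation and filters were not given in the sources used here. Both deposited peak lists belong, per the labels, to the 2 immunoprecipitates of a condition. Per the file headers, a peak has a fold enrichment (a ratio) and a −log10 value, named a p-value for control and an FDR for DF2 siRNA, and its deposited score is a whole number without a stated meaning. These are the authors' values and were used only inside each list.

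Coordinates come from the lists and are 1-based. In both lists the block sizes of minus-strand peaks stand in the reverse order of the block starts. Read as written, 3918 of 7635 such control peaks and 2860 of 6422 such DF2 siRNA peaks did not end at their stated end, and 1935 and 1346 had overlapping blocks. After reversal none did, so the reversed sizes were used. Touching blocks were joined into segments. Width is the sum of segments, and the intron gap is span minus width. The 1525 gene names of the members were matched to RefSeq genes (GRCh38.p14) through the symbol (1351) or through an unambiguous older name whose gene holds the peak (109), and 65 had no match. The overlap count was tested on simulated data. Alternatives were a reciprocal overlap of 50%, overlap without strand or of whole spans, equal list lengths, a p or FDR limit 100 times smaller, the upper 50% by fold enrichment, a 3′ UTR label as well, gaps of at most 100 bases counted as none, and any peak of the gene. Added after the data were seen were block sizes as written, members wider than 400 nt, and members that share no base with a peak of another gene.

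Named were YTHDF2 and, per list, the 6 members with the highest fold enrichment, the 4 each with the highest score, the largest and smallest width and the largest gap, and the 4 highest each without overlap or with another kind of counterpart. Genes with several members (up to 4) and, from each gene list, the 3 highest in both lists and up to 2 per direction in 1 list were named too. Some genes that this rule selects are not described, and others were named after their values were seen: SLC39A7, VASN, TPP1, CDKN2B, CDC42EP2, CDC42EP3, COX6A1, MAZ, SFN, B3GALT6, RRS1, FZD1, FZD2, FZD5, FZD7, FZD8, CEBPD, IER2, IER5, FOXC2, FOXE1, EGR2, FOXD2, JUND, METTL14, WTAP, ALKBH5, TUBB3, and the overlapping pairs of GALNT4, TICAM2 and ALG11. The scripts ran in Python 3.11.15 with scipy 1.17.1, pandas 2.3.3, numpy 2.4.6 and matplotlib 3.10.9.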

Additional observations from a re-analysis of the deposited data

How the results depend on the processing

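Of 103 values recomputed under 12 settings, 69 stayed within limits and 34 moved. The limits were 1.5 times for a count and the interval of the main value for a share or median, so values within them can still differ. The upper 50% by fold enrichment held 952 of the 1343 control members, and with a 3′ UTR label required 289 genes in place of 432 were in control alone. No test crossed a threshold, since none was run. Overlap without strand, overlap of whole spans, block sizes as written and leaving out members that share bases with another gene's peak moved no value past these limits. The control share overlapped by any peak was 89.9% at equal list lengths and 82.6% at a p or FDR 100 times smaller, where the median width was 1200 nt in both lists. In the upper 50% by fold enrichment the shares were 97.6 and 99.1% for any peak and 74.6 and 84.1% for frame-spanning peaks, 22.8% of control members had no gap, and the widths were 1400 and 1200 nt. With a 3′ UTR label required, 798 and 622 peaks remained, 91.6 and 96.5% were overlapped by any peak and 82.5% of DF2 siRNA members by a frame-spanning one, the widths were 1400 and 1200 nt, 499 genes were in both lists and 116 with DF2 siRNA alone. A reciprocal overlap of 50% gave 77.7 and 87.5% for any peak and 62.0 and 74.0% for frame-spanning peaks. Gaps of at most 100 bases counted as none gave 31.0% with DF2 siRNA. Any peak of the gene gave 1405 genes in both lists, 92 in control alone and 32 with DF2 siRNA alone. Members wider than 400 nt gave 92.7 and 96.8% for any peak, 69.8% for frame-spanning peaks in control, 22.9% without a gap in control, and widths of 1200 nt. These settings change which peaks or pairs are counted by their own construction.

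No paired analysis was possible because each list pools both libraries of a condition. No replicate was left out, as the lists hold no values per library. The comparison of peak width with the reading frame of the RefSeq protein was not run, as protein lengths were not used here. With library depth unknown, a missing counterpart cannot be told apart from a peak below the limit of detection.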

Other observations

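Frame-spanning peaks were spread over all chromosomes with unequal shares. In control they made up 11.1% of the peaks of chromosome 14 and 10.5% of those of chromosome 8, but 7 of 183 on chromosome 21 (3.8%). With DF2 siRNA the highest shares were on the same chromosomes, 11.1% on chromosome 14 and 11.2% on chromosome 8, and the lowest again on chromosome 21, with 4 of 158 (2.5%). The lists share most of their genes, so this repeat is not independent.

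Several genes carried more than 1 frame-spanning peak, 41 in control and 28 with DF2 siRNA. KLHL21, a Kelch adaptor of mitosis, had a 1200-nt peak of 1 exon at fold enrichments of 66.3 and 94.95, and a second peak of 800 nt in 4 segments at 32.3 and 44.8, each with the same blocks in both lists. KBTBD4, another Kelch protein, had 1800 nt in the same blocks at 65.3 and 49.9, beside a narrow peak of 200 nt in control and 400 nt with DF2 siRNA. INF2, a formin, had 2 frame-spanning peaks of 600 nt with DF2 siRNA, at 17.8 and 30.2, and neither shared a base with any control peak.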
